A study of Gallus gallus with 12 samples.

Results

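The genes described here encode the splicing machinery of chicken breast muscle: SR proteins, heterogeneous nuclear ribonucleoproteins (hnRNPs), proteins of the small nuclear ribonucleoproteins (snRNPs) and subunits of the SF3 complex. They were chosen by symbol, as all genes whose single symbol in the array annotation begins with SRSF, HNRNP, SNRP or SF3, and a gene with several rows was represented by the row with the highest mean over the arrays. This gave 34 genes of 11528 named ones: 10 SR proteins, 9 hnRNPs, 8 snRNP proteins and 7 SF3 subunits. All 34 were bright enough to be tested. Pectoralis major was taken from Ross PM3 chickens at day 36. One group of birds ate a normal diet, another a diet restricted in P and Ca (phosphorus and calcium), and the last ate that restricted diet with phytase added, so that restriction was common to the last 2 groups. Phytase is an enzyme that frees phosphate from plant phytate. Each of the 12 Affymetrix arrays measured RNA of 1 pool of 4 birds, with 4 pools per diet. How birds were put into pools, and their sex, is not given in the labels, so SDs and p-values reflect differences among pools and not among birds. The number of arrays limits the precision.

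Introns are removed from new transcripts by the spliceosome, a machine built from snRNPs. SR proteins bind exons through RNA recognition motifs and recruit the machine through tails rich in arginine and serine, while many hnRNPs coat new transcripts and hinder the use of nearby splice sites. Skeletal muscle makes extensive use of alternative splicing, for example in troponin T and titin, and the balance between SR proteins and hnRNPs is one known influence on which exons are kept. The roles given below are those known mainly from mammals.

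Values are deposited levels on a log2 scale, 1 per transcript cluster, which is the array's unit for a gene or part of one. A gene's brightness depends on its probes, so a level says nothing of a gene's abundance beside another gene, and differences are given within a gene. The muscle markers ACTA1, skeletal actin, and TNNI2, fast troponin I, had signal on every array, with mean levels of 13.59 and 11.93. In a bulk sample, fewer cells of a type and less RNA per cell cannot be told apart. One array stood apart: restricted replicate 1 had the narrowest spread of levels, with an SD over all clusters of 1.81 against 1.87 to 1.92 on the others. Its median correlation with the other arrays, taken across the 12482 tested clusters, was 0.950 against 0.963 to 0.972. HINTW, a transcript of the female W chromosome, was at 8.06 and 8.08 in restricted replicates 1 and 2 and at 7.66 and 7.57 in phytase replicates 1 and 4. It was at most 2.76 in the other pools, which include all 4 normal pools. Pools with W-linked signal were therefore unevenly spread over the diets.

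The 34 genes varied little between pools of a diet: the median SD within a diet was 0.18, against 0.24 over all tested clusters, a spread that also depends on the brightness of each probe set. HNRNPDL, HNRNPH3 and SF3B6 were the steadiest, each with an SD within a diet of 0.09. SNRPF, at 0.40, HNRNPK, at 0.37, SRSF2, at 0.34, and HNRNPU, at 0.32, varied most.

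**Figure D1:**
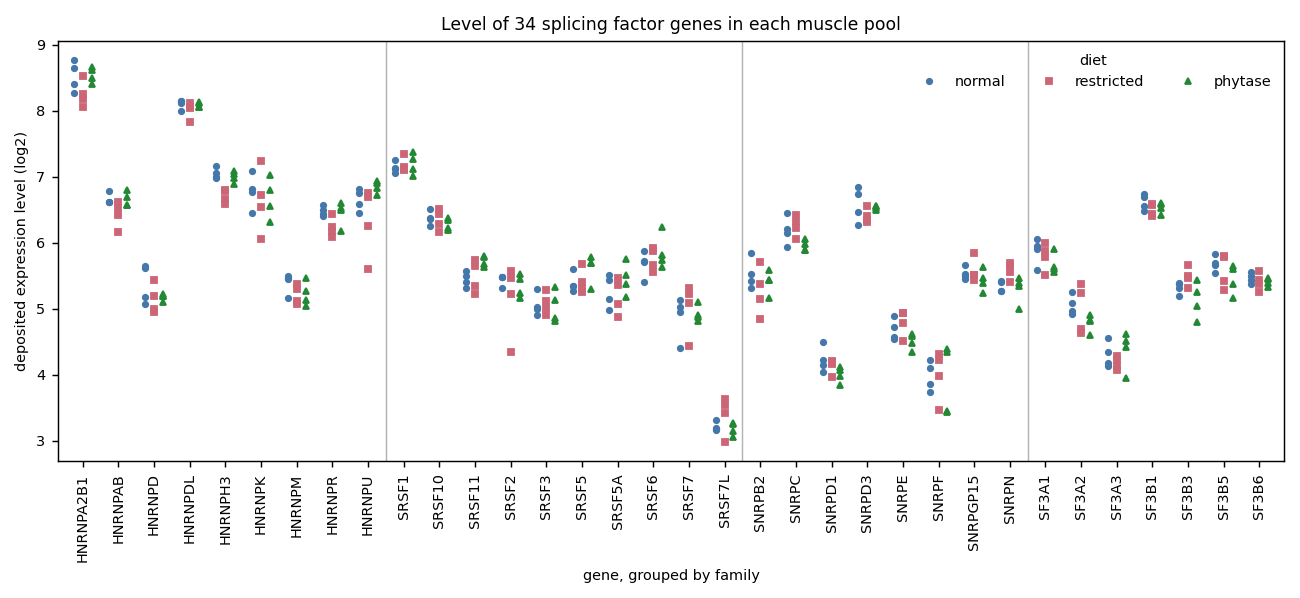
Deposited log2 level of each of the 34 genes in every pool, grouped by family, with circles for normal, squares for restricted and triangles for phytase pools. HNRNPH3 is the 1 gene whose restricted pools lie apart from all other pools, and SRSF2 and HNRNPU each have 1 low restricted pool.

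With limma and Benjamini-Hochberg adjustment over all 12482 clusters, 0 of the 34 genes reached an adjusted p of 0.05 in any contrast, as did 0% of all clusters. Between restricted and normal muscle, 1 of 34 had an unadjusted p under 0.05, where 5.30% of all clusters did. That was HNRNPH3, which was lower, as 2.71% of all clusters were at this level, and 0 of 34 were higher, as 2.60% were. Between phytase and restricted muscle there were 5 of 34, where 8.83% of all clusters passed. Of these HNRNPH3, HNRNPU and HNRNPA2B1 were higher, as 5.03% of all clusters were, and SNRPC and SF3B3 lower, as 3.80% were. Between phytase and normal muscle there were 0 of 34, where 4.32% of all clusters passed, 2.10% higher and 2.22% lower. The F test over the 3 diets had 1 of 34 at an unadjusted p under 0.05, again HNRNPH3, against 5.97% of all clusters. The count of 5 fell to 0 without the 4 arrays with HINTW signal, to 1 without phytase replicate 2 and to 2 without restricted replicate 1 or 2, and it was 7 without restricted replicate 3. Without the arrays with HINTW signal, only restricted replicates 3 and 4 and phytase replicates 2 and 3 remained in this contrast. With the HINTW level as a covariate instead, HNRNPH3, HNRNPU, HNRNPA2B1 and SF3B3 stayed under 0.05. SNRPC did not, at an unadjusted limma p of 0.0503. The share of all clusters that passed is not given for these settings, so the moves are not read as results about the 34 genes. The restricted pools enter the first contrast and the second, so that opposite signs in them are not independent of each other.

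The signs over the 34 genes are set beside those of the whole array, and no test over the 34 genes was made. Between restricted and normal muscle 13 were higher (38.2%, against 48.6% of all clusters) and 21 lower (61.8%, against 50.9%). Between phytase and restricted muscle 19 were higher (55.9%, against 48.3%) and 15 lower (44.1%, against 51.2%). Between phytase and normal muscle 10 were higher (29.4%, against 49.6%) and 24 lower (70.6%, against 49.9%). Their median difference was -0.08 on the log2 scale between restricted and normal, 0.03 between phytase and restricted and -0.06 between phytase and normal. The medians over all tested clusters were -0.01, -0.01 and 0.00. Without restricted replicate 1 the first of the medians over the 34 genes was -0.01 and the second turned to -0.03, and without the 4 arrays with HINTW signal they were -0.03 and -0.04. The families differed in their signs, as the plot of differences shows, and are taken in turn.

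**Figure D2:**
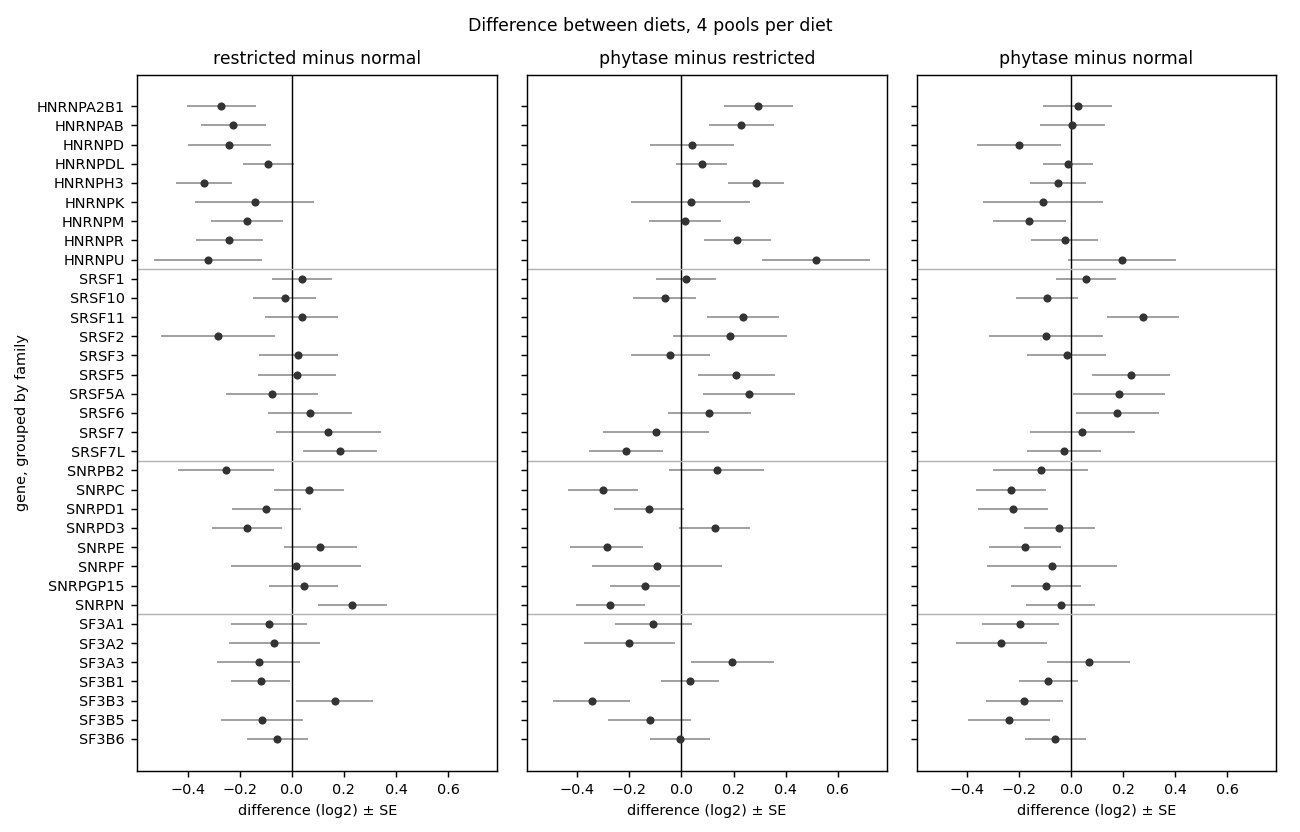
Difference in mean log2 level for each gene in the 3 diet contrasts, with the standard error from limma and 4 pools per diet. All 9 hnRNPs lie left of 0 between restricted and normal and right of 0 between phytase and restricted, and all 8 snRNP proteins lie left of 0 between phytase and normal.

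The hnRNPs were lower in restricted than in normal muscle in 9 of 9 genes, where 50.9% of all clusters were lower. Their differences ran from -0.09 to -0.34 with a median of -0.24, against -0.01 over all clusters, and only HNRNPH3 had an unadjusted p under 0.05. With phytase, 9 of 9 were higher than in restricted muscle, by 0.01 to 0.52 with a median of 0.22, where 48.3% of all clusters were higher. Against normal muscle, phytase muscle had 6 of 9 lower (49.9% of all clusters), with a median of -0.03. This pattern of signs was noticed in the data, and no test over the family was made.

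HNRNPH3, of the hnRNP H and F group that binds runs of G, had the smallest p of the 34 in the first 2 contrasts. Its levels were 7.06, 6.98, 6.99 and 7.16 in normal, 6.59, 6.79, 6.80 and 6.66 in restricted and 7.04, 7.08, 6.89 and 6.98 in phytase replicates 1 to 4. Every restricted pool lay below every normal pool, as in 1.15% of all clusters, and below every phytase pool, as in 1.64%. None of the 34 had all restricted pools above all normal pools, as 1.16% of all clusters did. The means were 7.05 ± 0.08, 6.71 ± 0.10 and 7.0 ± 0.08 (SD, n = 4), so that restricted muscle was 1.26-fold below normal. The difference of -0.34 ± 0.11 (SE) had an unadjusted limma p of 0.00731 and an adjusted p of 0.904. Phytase exceeded restricted by 0.29 ± 0.11 (SE), with an unadjusted limma p of 0.0183 and an adjusted p of 0.519. Over every alternative the difference between restricted and normal stayed between -0.37 and -0.30.

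HNRNPU, which binds RNA and chromatin scaffolds in the nucleus, was at 6.45, 6.58, 6.76 and 6.81 in normal, 5.61, 6.26, 6.75 and 6.69 in restricted and 6.83, 6.93, 6.90 and 6.72 in phytase pools. Restricted replicates 1 and 2 were its lowest pools, and the other two restricted pools lay inside the normal range. Phytase minus restricted was 0.52 ± 0.21 (SE; adjusted p = 0.523 in limma), and restricted minus normal was -0.32 ± 0.21 (SE; adjusted p = 0.910 in limma). Without restricted replicate 1 these became 0.28 and -0.08. Without the 4 arrays with HINTW signal the first was 0.20 and the second turned to 0.07. With the HINTW level as a covariate instead, the first was 0.50 and the second -0.06. That 0.50 had an unadjusted limma p of 0.0106 and an adjusted p of 0.447. Phytase minus normal, 0.195 ± 0.21 (SE) in the main fit, was 0.44 with the covariate, with an unadjusted limma p of 0.0365 and an adjusted p of 0.588.

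HNRNPA2B1, which binds transcripts and takes part in their splicing and transport, was at 8.41, 8.27, 8.77 and 8.64 in normal, 8.05, 8.18, 8.52 and 8.26 in restricted and 8.66, 8.50, 8.62 and 8.41 in phytase pools. The groups overlapped through restricted replicate 3. Restricted minus normal was -0.27 ± 0.13 (SE; adjusted p = 0.904 in limma), which became -0.13 without the arrays with HINTW signal. Phytase minus restricted was 0.29 ± 0.13 (SE; adjusted p = 0.556 in limma), which became 0.17 without them. With the HINTW level as a covariate these differences were -0.19 and 0.29.

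The other hnRNPs had smaller differences or wider spreads. HNRNPR differed by -0.24 ± 0.13 (SE) between restricted and normal and by 0.21 ± 0.13 (SE) between phytase and restricted, and the first of these was -0.14 with the HINTW level as a covariate. A second row of HNRNPR, too dim to be tested at a mean of 2.35, differed by -0.025 and -0.09 in these contrasts. The family counts use the brighter row. HNRNPAB, which also acts in transcription, differed by -0.23 ± 0.13 (SE) and 0.23 ± 0.13 (SE), and without restricted replicate 1 these were -0.14 and 0.14. HNRNPD, also called AUF1, binds AU-rich elements that mark transcripts for decay. It differed by -0.24 ± 0.16 (SE) between restricted and normal but by 0.04 ± 0.16 (SE) between phytase and restricted, and by -0.20 ± 0.16 (SE) between phytase and normal. Without normal replicate 4, its highest pool, the first of these was -0.15 and the last -0.11. HNRNPM differed in the same way, by -0.17 ± 0.14 (SE) and 0.01 ± 0.14 (SE). HNRNPDL, a close relative of HNRNPD, differed by -0.09 ± 0.10 (SE) and 0.08 ± 0.10 (SE), and without restricted replicate 1 by -0.03 and 0.02.

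Restricted replicate 1 carried part of this pattern. It was the lowest of the 12 pools in 7 of 9 hnRNPs, and in 12 of all 34 genes, where it was the lowest in 16.8% of all tested clusters. The 7 were HNRNPA2B1, HNRNPAB, HNRNPD, HNRNPDL, HNRNPH3, HNRNPK and HNRNPU. Without it, 8 of 9 hnRNPs were lower in restricted than normal muscle with a median of -0.14, and 6 of 9 were higher with phytase with a median of 0.14. Without the 4 arrays with HINTW signal, 7 of 9 were lower in restricted muscle with a median of -0.17, and 6 of 9 were higher with phytase with a median of 0.16.

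Of the cell type markers summed per pool, only red cell genes had all restricted pools apart from all normal pools. The summed level of red cell genes, of which HBA1, HBAD and HBZ of 6 listed were on the array, was 7.75 to 8.08 in normal, 8.96 to 10.61 in restricted and 7.71 to 8.90 in phytase pools. The summed level of 5 of 7 fibroblast and matrix genes was 11.64 to 12.65, 12.24 to 13.06 and 12.15 to 12.85 in the same order. Macrophage and lymphocyte genes, 6 of 7 on the array, were at 9.48 to 10.15, 9.62 to 10.55 and 9.53 to 10.26. Endothelial genes, 4 of 5, were at 7.12 to 7.31, 6.79 to 7.71 and 7.26 to 7.62, and adipocyte genes, 4 of 5, at 7.61 to 8.40, 8.19 to 8.57 and 7.80 to 8.30. The 6 of 9 fast muscle genes on the array were at 14.75 to 14.90, 14.72 to 14.83 and 14.74 to 14.86. The sums were taken over linear values, so the brightest row of a list weighs most. For red cell genes that was HBAD, for fibroblast and matrix genes COL1A1, for macrophage and lymphocyte genes CD74, and for fast muscle genes ACTA1. Single fast muscle genes could move more than their sum. Between phytase and restricted 2 of them were higher and 4 lower, with differences from -0.125 to 0.54. ACTN2 was at 11.08 to 11.61 in normal, 10.59 to 11.52 in restricted and 11.13 to 11.91 in phytase pools. HBA1 was at 5.95 to 6.54 in normal and 7.29 to 8.8 in restricted pools. HBZ, dimmer than HBAD and HBA1, overlapped, at 2.5 to 2.76 in normal and 2.11 to 2.77 in restricted pools. The part of these cell types in the hnRNP values was not tested.

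**Figure D3:**
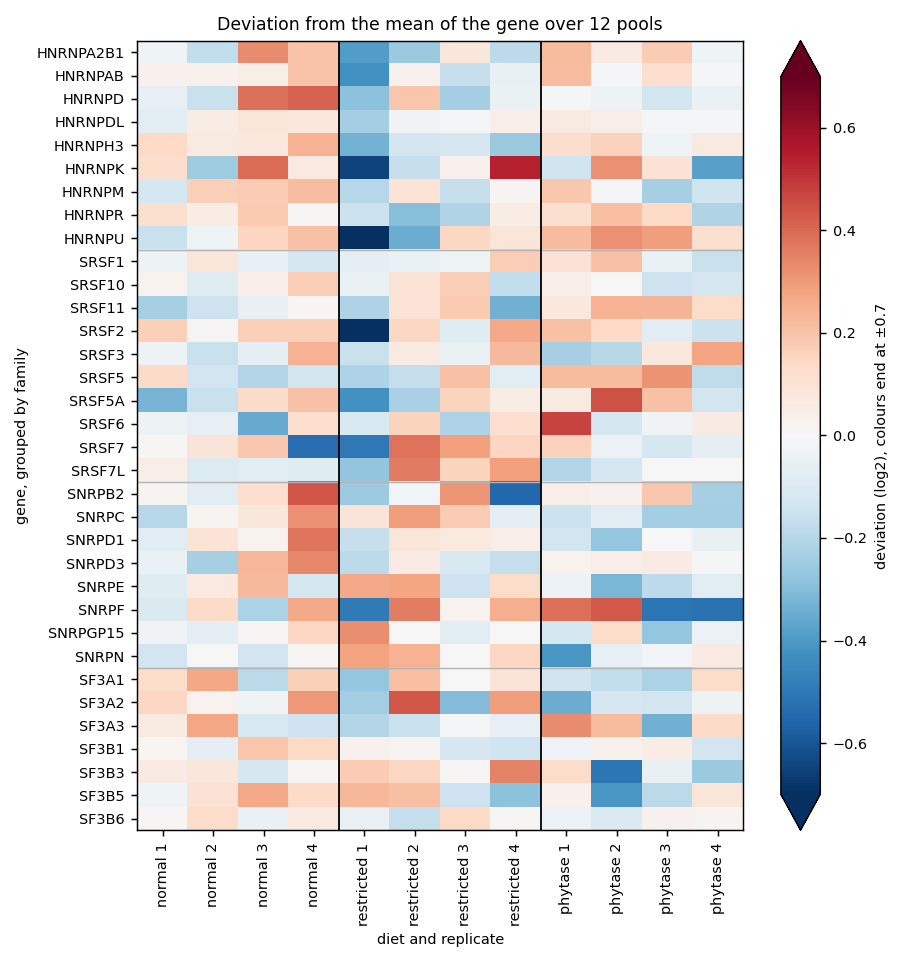
Deviation of each gene from its own mean over the 12 pools on the log2 scale, with pools in columns and genes in rows, blue for lower and red for higher. The column of restricted replicate 1 is the lowest pool for 7 of 9 hnRNPs and for 12 of the 34 genes.

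HNRNPK, which binds C-rich RNA through KH domains, is the 1 gene of the 34 that RefSeq places on chromosome Z, of which male birds carry a pair and females a single copy. Its levels were 6.82, 6.45, 7.09 and 6.77 in normal, 6.05, 6.54, 6.73 and 7.24 in restricted and 6.56, 7.02, 6.80 and 6.32 in phytase pools. Within the restricted diet both pools with HINTW signal, at 6.05 and 6.54, lay below both pools without it, at 6.73 and 7.24. Within the phytase diet the pools with HINTW signal, at 6.56 and 6.32, again lay below the others, at 7.02 and 6.80. The mean gap between them was -0.69 in restricted and -0.47 in phytase muscle. The same order in both diets was seen in HNRNPU and SRSF5A among the 34, in 3.34% of all tested clusters and in 34 of 330 tested Z-linked clusters, a share of 10.3%. SF3B5 and SNRPE had the opposite order, as 3.41% of all clusters did. The diet difference of HNRNPK was -0.14 ± 0.23 (SE) between restricted and normal, and it turned to 0.20 without the 4 arrays with HINTW signal. It also turned, to 0.05, when restricted replicate 1, one of those 4 arrays, was left out alone.

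**Figure D4:**
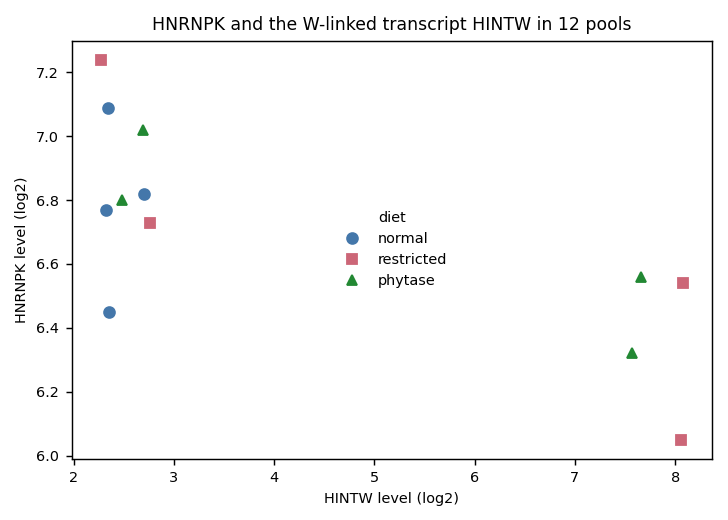
Log2 level of HNRNPK against that of the W-linked transcript HINTW in the 12 pools, with circles for normal, squares for restricted and triangles for phytase. The 4 pools with HINTW signal, to the right, have HNRNPK levels from 6.05 to 6.56, and the pools without it from 6.45 to 7.24.

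The SR proteins showed no direction common to all 10. Between restricted and normal muscle 7 of 10 were higher (48.6% of all clusters) and 3 lower, with a median of 0.03. In that contrast SRSF5A turned from -0.075 to 0.03 without restricted replicate 1. SRSF2 and SRSF10, at -0.02 and -0.01, were then the only SR proteins that were lower. Between phytase and restricted 6 were higher (48.3% of all clusters), with a median of 0.06. Without restricted replicate 1 that was 4 of 10, with a median of -0.04. Between phytase and normal muscle 6 of 10 were higher (49.6% of all clusters), with a median of 0.05. None had an unadjusted p under 0.05 in any contrast in the unweighted model of diet alone over all pools. Between phytase and normal, SRSF11 had an unadjusted limma p of 0.0309 with array weights. With the HINTW level as a covariate, SRSF5 had 0.0428 and SRSF5A 0.0346 in that contrast. The adjusted p-values of these 3 in limma were 0.655, 0.588 and 0.588.

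SRSF11, an SR-related protein, had the smallest F test p of the SR proteins. It was at 5.32, 5.41, 5.50 and 5.57 in normal, 5.34, 5.65, 5.74 and 5.22 in restricted and 5.63, 5.80, 5.79 and 5.68 in phytase pools. All phytase pools lay above all normal pools, as in 1.54% of all clusters, while the restricted pools spanned both groups. Phytase minus normal was 0.28 ± 0.14 (SE; adjusted p = 0.984 in limma), a 1.21-fold difference, and phytase minus restricted was 0.24 ± 0.14 (SE; adjusted p = 0.627 in limma), or 0.15 without restricted replicate 4.

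SRSF5, which like other SR proteins binds exonic enhancers, was at 5.61, 5.34, 5.27 and 5.35 in normal, 5.26, 5.31, 5.68 and 5.40 in restricted and 5.70, 5.70, 5.79 and 5.30 in phytase pools. Phytase replicate 4 lay with the lower pools of the other diets. Phytase minus normal was 0.23 ± 0.15 (SE) and became 0.34 without that pool. SRSF5A, the gene with a related symbol, was lowest in restricted replicate 1, at 4.88, and highest in phytase replicate 2, at 5.75, and phytase exceeded restricted by 0.26 ± 0.18 (SE). Without either pool that was 0.15 and 0.16.

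SRSF7L was at 3.31, 3.17, 3.19 and 3.18 in normal, 2.99, 3.63, 3.42 and 3.55 in restricted and 3.06, 3.15, 3.27 and 3.26 in phytase pools. The restricted group held both the lowest pool and the 3 highest, and restricted minus normal was 0.19 ± 0.14 (SE; adjusted p = 0.921 in limma). Without restricted replicate 1 it was 0.32, with an unadjusted limma p of 0.0206 and an adjusted p of 0.756, and without restricted replicate 2 it was 0.11. Phytase minus restricted was -0.21 ± 0.14 (SE), and without restricted replicate 1 it was -0.35, with an unadjusted limma p of 0.0134 and an adjusted p of 0.670. SRSF7, which carries a zinc knuckle beside its RNA recognition motif, was measured by 2 rows that disagreed. Its brighter row, used here, differed by 0.14 between restricted and normal, and its dimmer row by -0.27. The first value ran from -0.02 without normal replicate 4 to 0.33 without restricted replicate 1. Normal replicate 4 was the lowest pool in the brighter row, at 4.41, and the highest in the dimmer one, at 4.42.

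SRSF2, also called SC35, had its lowest pool in restricted replicate 1, at 4.35, with all others between 5.16 and 5.58. Restricted minus normal was -0.29 ± 0.22 (SE) with that pool and -0.02 without it. SRSF1, the founding SR protein, stayed between 7.01 and 7.37 over all pools, and its 3 diet differences ran from 0.02 to 0.06. SRSF3, the smallest SR protein, had diet differences from -0.04 to 0.03. SRSF10, an SR protein that represses splicing when dephosphorylated, had differences from -0.09 to -0.03. SRSF6 had differences from 0.07 to 0.18, the largest of which, between phytase and normal, was 0.05 without phytase replicate 1.

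The snRNP proteins were lower in phytase than in normal muscle in 8 of 8 genes, where 49.9% of all clusters were lower. The differences ran from -0.04 to -0.23 with a median of -0.11, and none had an unadjusted p under 0.05. Without normal replicate 4 the count was 6 of 8 and the median -0.03. That pool was the highest of the 12 pools in SNRPB2, SNRPC, SNRPD1 and SNRPD3, as in 7.81% of all tested clusters. Between phytase and restricted muscle 6 of 8 were lower (51.2% of all clusters) with a median of -0.13. Between restricted and normal muscle 3 of 8 were lower (50.9% of all clusters) with a median of 0.03. This pattern too was noticed in the data.

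SNRPC, the U1-C protein that helps U1 recognise the start of an intron, was at 5.93, 6.15, 6.21 and 6.45 in normal, 6.22, 6.42, 6.31 and 6.06 in restricted and 5.98, 6.05, 5.89 and 5.89 in phytase pools. All phytase pools lay below all restricted pools, as in 2.03% of all clusters, though the closest pair was nearly level. The difference of -0.30 ± 0.13 (SE) had an unadjusted limma p of 0.0429 and an adjusted p of 0.556. Phytase minus normal was -0.23 ± 0.13 (SE; adjusted p = 0.984 in limma), with overlapping pools, and -0.14 without normal replicate 4.

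SNRPN, a relative of the Sm ring protein SmB whose RefSeq synonyms in chicken include SNRPB, was at 5.27, 5.41, 5.27 and 5.42 in normal, 5.69, 5.65, 5.41 and 5.55 in restricted and 5.0, 5.35, 5.39 and 5.47 in phytase pools. Restricted replicate 3 was the 1 restricted pool inside the range of the normal ones. Restricted minus normal was 0.23 ± 0.13 (SE; adjusted p = 0.904 in limma) and phytase minus restricted was -0.27 ± 0.13 (SE; adjusted p = 0.571 in limma). Without the arrays with HINTW signal the first difference was 0.14 and the second -0.11. The second was -0.17 without phytase replicate 1.

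SNRPE, a protein of the Sm ring that surrounds snRNAs, was at 4.58, 4.73, 4.89 and 4.54 in normal, 4.93, 4.94, 4.52 and 4.79 in restricted and 4.62, 4.34, 4.48 and 4.59 in phytase pools. Restricted replicate 3 lay among the phytase pools. Phytase minus restricted was -0.29 ± 0.14 (SE; adjusted p = 0.567 in limma), which became -0.18 with an offset of 16 added to the linear values. Of the other Sm ring proteins, SNRPD1 differed by -0.22 ± 0.13 (SE) between phytase and normal, or -0.13 without normal replicate 4, and SNRPD3 by -0.05 ± 0.14 (SE). SNRPF ranged from 3.44 to 4.39, with phytase replicates 1 and 2 at 4.35 and 4.39 and phytase replicates 3 and 4 at 3.45 and 3.44. SNRPGP15, for which RefSeq lists the synonym SNRPG, differed by -0.14 ± 0.13 (SE) between phytase and restricted, or -0.05 without restricted replicate 1. SNRPB2, a protein of the U2 snRNP, differed by -0.25 ± 0.18 (SE) between restricted and normal, and by -0.11 without restricted replicate 4, its lowest pool at 4.85, but by -0.40 without restricted replicate 3.

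The SF3 complex is part of the U2 snRNP and holds it at the branch site of an intron. Between restricted and normal muscle 6 of 7 subunits were lower (50.9% of all clusters) with a median of -0.09, and without restricted replicate 1 this was 4 of 7 with a median of -0.04. Between phytase and normal muscle 6 of 7 were lower (49.9% of all clusters) with a median of -0.18. Between phytase and restricted muscle 5 of 7 were lower (51.2% of all clusters) with a median of -0.11, or -0.05 without restricted replicate 1.

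SF3B3, a large scaffold subunit, was at 5.37, 5.39, 5.19 and 5.32 in normal, 5.49, 5.46, 5.32 and 5.66 in restricted and 5.44, 4.80, 5.26 and 5.05 in phytase pools. Phytase replicate 1 lay among the restricted pools, and phytase replicate 2 was the lowest of all. Phytase minus restricted was -0.35 ± 0.15 (SE), with an unadjusted limma p of 0.0354 and an adjusted p of 0.539. Without phytase replicate 2 it was -0.23.

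SF3A2 was at 5.09, 4.97, 4.92 and 5.25 in normal, 4.70, 5.38, 4.64 and 5.24 in restricted and 4.6, 4.83, 4.82 and 4.91 in phytase pools. All phytase pools lay below all normal pools, as in 1.51% of all clusters, again with the closest pair nearly level, and the restricted pools were split between high and low values. Phytase minus normal was -0.27 ± 0.17 (SE; adjusted p = 0.984 in limma), which became -0.18 with an offset of 16 added to the linear values.

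SF3B5, a small subunit of the complex, was at 5.54, 5.67, 5.83 and 5.70 in normal, 5.80, 5.78, 5.42 and 5.28 in restricted and 5.6, 5.16, 5.38 and 5.65 in phytase pools. Within both the restricted and the phytase diet the pools with HINTW signal were the higher ones. Phytase minus normal was -0.24 ± 0.16 (SE; adjusted p = 0.984 in limma), and it was -0.44 with the HINTW level as a covariate and -0.14 without phytase replicate 2. SF3A1 differed by -0.20 ± 0.15 (SE) between phytase and normal. SF3A3 was the 1 subunit above normal with phytase, by 0.07 ± 0.16 (SE). SF3B1, the largest subunit, which closes around the branch site, stayed between 6.41 and 6.74, and SF3B6, which touches the branch point, between 5.26 and 5.57.

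**Figure D5:**
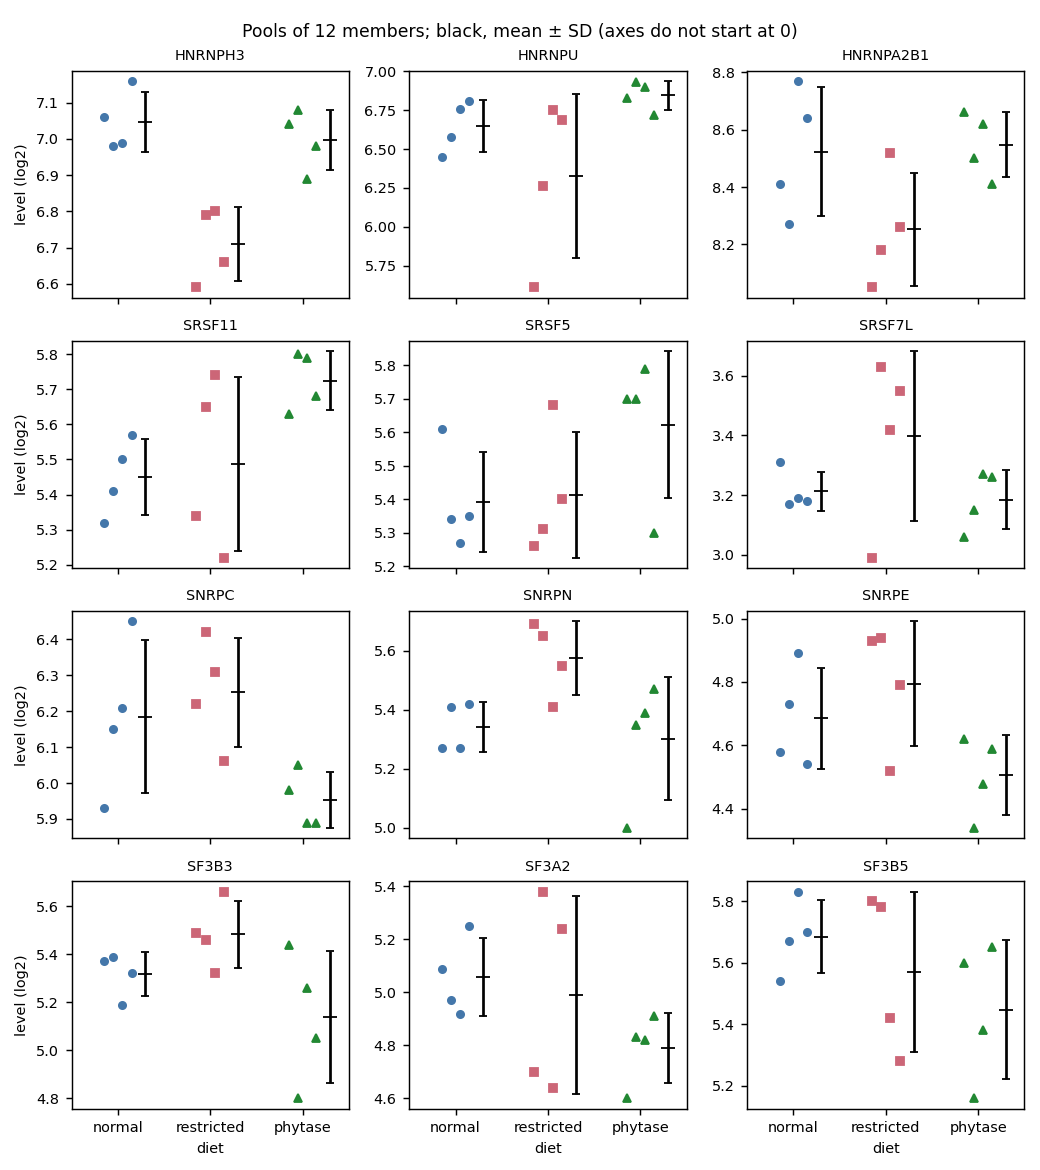
Log2 levels in every pool of the 3 genes per family with the smallest F test p, with circles, squares and triangles for normal, restricted and phytase pools and black bars for mean ± SD (n = 4). The restricted pools of HNRNPH3 lie below all others, the phytase pools of SNRPC below all restricted ones, and those of SRSF11 above and of SF3A2 below all normal ones.

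The wider splicing machinery was read from 4 lists. Of all clusters, 50.9% were lower between restricted and normal muscle, 48.3% higher between phytase and restricted, and 49.6% higher between phytase and normal. Of 72 other spliceosome proteins 48 were on the array and 45 tested. In restricted against normal muscle 27 of them were lower and 18 higher, with a median of -0.02, and 2 lower and 0 higher ones had an unadjusted p under 0.05, as 2.71% and 2.60% of all clusters did. In phytase against restricted muscle 24 were higher and 21 lower, with 5 higher and 1 lower at that level, as 5.03% and 3.80% of all clusters were. In phytase against normal muscle 27 were lower and 18 higher. None passed that level, where 2.22% of all clusters were lower and 2.10% higher. CDC40, which acts in the second step of splicing, was lower in every restricted pool than in every normal pool, as in 1.15% of all clusters, by -0.56 ± 0.21 (SE; adjusted p = 0.904 in limma). It was higher in every phytase pool than in every restricted pool, as in 1.64% of all clusters, by 0.50 ± 0.21 (SE; adjusted p = 0.537 in limma), or 0.32 without restricted replicate 1. That pool was its lowest, at 3.34, with the other restricted pools at 3.94 to 4.09. The closest pairs were nearly level, with 4.09 in restricted replicate 3 against 4.14 in normal replicate 1 and 4.13 in phytase replicate 1. DDX46, a helicase of early spliceosome assembly, differed by 0.57 ± 0.21 (SE) between phytase and restricted, or 0.33 without restricted replicate 1, its lowest pool. CRNKL1 differed by -0.38 ± 0.16 (SE) between restricted and normal and by 0.36 ± 0.16 (SE) between phytase and restricted.

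Of 28 SR protein kinases and SR-related proteins 23 were tested. In restricted against normal muscle 19 of them were lower, with a median of -0.10. At an unadjusted p under 0.05 there were 0, where 2.71% of all clusters were lower and 2.60% higher. In phytase against restricted muscle 19 were higher, with a median of 0.17 and 3 at that level, where 5.03% of all clusters were. Those were SREK1, at 0.49 ± 0.19 (SE), LUC7L3, related to a U1 protein, at 0.40 ± 0.18 (SE), and BCLAF1 at 0.48 ± 0.21 (SE), or 0.27 without phytase replicate 2. In phytase against normal muscle 17 were higher, with a median of 0.08 and 0 at that level, where 2.10% of all clusters were higher and 2.22% lower. In this list restricted replicate 1 had a median deviation of -0.20, the lowest of all pools. The counts of the list without that pool are not given.

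Of 42 hnRNP-related proteins and tissue splicing regulators 27 were tested. In restricted against normal muscle 17 were lower and 10 higher, with a median of -0.13. PTBP1, the polypyrimidine tract binding protein that represses many exons, differed the other way, by 0.39 ± 0.18 (SE), and was the 1 gene of the list at an unadjusted p under 0.05, where 2.60% of all clusters were higher at that level. Without restricted replicate 4 its difference was 0.22. In phytase against restricted muscle 18 were higher and 8 lower, with a median of 0.16. QKI, a splicing regulator of muscle and glia, differed by 0.46 ± 0.17 (SE; adjusted p = 0.519 in limma) and FMR1, which binds translated transcripts, by 0.60 ± 0.26 (SE; adjusted p = 0.556 in limma). They were the 2 genes of the list higher at an unadjusted p under 0.05, as 5.03% of all clusters were. Without restricted replicate 1 the differences of QKI and FMR1 were 0.29 and 0.33. In phytase against normal muscle 21 were higher, with a median of 0.10. In this list restricted replicate 1 had a median deviation of -0.35, the lowest of the 12 pools.

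Of 17 snRNP assembly genes 8 were tested. All 8 were lower in restricted than in normal muscle, where 50.9% of all clusters were, with a median of -0.13. At an unadjusted p under 0.05 there were 0, where 2.71% of all clusters were lower and 2.60% higher. In phytase against restricted muscle 6 of 8 were higher, and 0 passed that level, where 5.03% of all clusters were higher and 3.80% lower. In phytase against normal muscle 6 of 8 were lower, also with 0 at that level, where 2.22% of all clusters were lower and 2.10% higher. Restricted replicate 1 had a median deviation of -0.16 in this list, again the lowest of all pools. The counts without that pool are not given. Among the other spliceosome proteins it was at -0.03 and was not the lowest. GEMIN8, of the SMN complex that loads Sm rings, differed by -0.26 ± 0.16 (SE) and 0.32 ± 0.16 (SE) in the first contrast and the second. STRAP, which binds the same complex, differed by -0.31 ± 0.17 (SE) and 0.01 ± 0.17 (SE), and the first was -0.19 without restricted replicate 1. All its phytase pools lay below all normal ones, as in 1.51% of all clusters. WDR77, of the methylosome that modifies Sm proteins, differed by -0.17 ± 0.13 (SE), or -0.10 without normal replicate 2, and -0.05 ± 0.13 (SE).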

How the data were processed

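The authors' deposited values are 1 level per transcript cluster and array, taken as log2 from their range of 0.83 to 14.36; GCRMA and Affymetrix Expression Console are named per the submitters' processing notes, with no versions or roles. GCRMA compresses dim signals. Symbols came from the platform annotation: 12300 clusters had 1 symbol, 256 several and 8248 none. All 34 genes were found by identifier in RefSeq's table for GRCg7b, with 0 symbols changed. HNRNPR and SRSF7 had 2 rows each, and 2 clusters whose several symbols include one with a listed prefix were not used.

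Groups came from the titles. The dimmest 40% of clusters, with means under 2.67, were left out, and the other 12482 were tested with limma 3.58.1 in R 4.3.3. The model had 1 mean per diet over all 12 arrays and a prior variance that follows intensity, and p-values were adjusted by Benjamini-Hochberg within each contrast. The median standard error was 0.17. The fit was tested on simulated data.

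The genes, lists and naming rule were chosen with earlier results of these data known. The rule gave values on every array for the 3 genes per family with the smallest F test p, named the 8 with the smallest p in each contrast, and the 3 per list of other splicing genes with the smallest F test p. Alternatives were other filters, scalings, priors, weights, an offset of 16, a replicate block, pairwise fits, HINTW as a covariate or its 4 arrays left out, other row choices, and leaving out each array. Family counts were examined after their signs were seen.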

Additional observations from a re-analysis of the deposited data

Results flagged for a closer look

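In 6 of 102 sets of 4 pools, 1 pool stood apart from the rest of its diet for its gene, by Dixon's gap criterion. The criterion sets the gap to the nearest pool against the range of the 4 pools, so a small gap can be flagged. Chance flags about 1 in 20 such sets. SRSF1 was at 7.34 in restricted replicate 4, against 7.10 to 7.14 in the other restricted pools. HNRNPAB was at 6.78 in normal replicate 4, against 6.61 to 6.62. SRSF2 was at 5.32 in normal replicate 2, against 5.48 in each of the other normal pools. HNRNPM was at 5.16 in normal replicate 1, against 5.45 to 5.50. SNRPD1 was at 3.96 in restricted replicate 1, against 4.17 to 4.21. SRSF7L was at 3.31 in normal replicate 1, against 3.17 to 3.19. No gene had more than 1 such pool. SRSF2 in restricted replicate 1, at 4.35 against 5.23 to 5.58 in the other restricted pools, was not flagged.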

How the results depend on the processing

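None of the 34 genes passed an adjusted p of 0.05 in limma under any alternative run. Counts at an unadjusted p under 0.05 are small and moved easily. The shares of all clusters that passed under the alternatives are not given beside them. Between restricted and normal the count of 1 was 2 with the replicate block or the HINTW covariate, and 1 to 4 with 1 array left out. Between phytase and restricted the count of 5 was 3 with arrays centred on their medians, 0 without the 4 arrays with HINTW signal, and 1 to 7 with 1 array left out. With the HINTW covariate SNRPC alone of the 5 no longer passed, at an unadjusted limma p of 0.0503. Between phytase and normal the count of 0 was 1 with array weights, pairwise fits or no arrays with HINTW signal, 4 with the HINTW covariate, and 0 to 1 with 1 array left out. In the F test the count of 1 was 2 with array weights or the replicate block, 3 with the HINTW covariate, and 1 to 3 with 1 array left out. HNRNPU between restricted and normal turned from -0.32 to 0.07 without the 4 arrays with HINTW signal. Of the differences followed through the alternatives, this was the 1 to turn, and its cause was not tested. Other differences were not followed in this way, and some of them turned when 1 array was left out. HNRNPK and SRSF7, between restricted and normal, are given above. Between phytase and restricted, SRSF2 turned from 0.19 to -0.08 and HNRNPD from 0.04 to -0.02, both without restricted replicate 1. SRSF6 between restricted and normal turned from 0.07 to -0.02 without normal replicate 3. Arrays with the same replicate number were not more alike than others. Over 12 pairs with the same number the correlation of deviations ran from -0.16 to 0.18, against -0.35 to 0.33 over 36 other pairs. Of 12 arrays, 2 correlated best with their own number. A weak pairing could go unseen in these correlations. The median difference over the 34 genes ran from -0.10 to -0.01 between restricted and normal, from -0.04 to 0.07 between phytase and restricted, which includes a change of sign, and from -0.08 to -0.02 between phytase and normal. Left-out values for genes beyond the listed differences were added after seeing the data. SRSF7L was the dimmest of the 34 genes, at a mean level of 3.265. Whether GCRMA's compression of dim signals affected it was not tested.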

Other observations

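Differences of neighbouring genes of the group are set side by side, and no test between neighbours was made. HNRNPD and HNRNPDL have 0 protein-coding genes between them in RefSeq. Their differences between restricted and normal were -0.24 ± 0.16 (SE) and -0.09 ± 0.10 (SE). SRSF7 and SRSF7L have 1 gene between them, with differences of 0.14, in the brighter SRSF7 row, and 0.19. The dimmer SRSF7 row differed by -0.27. The brighter SRSF7 row and SRSF7L were both higher in restricted replicate 2 than in any other pool, at 5.32 and 3.63. SRSF5 and SRSF5A have 9 genes between them, and phytase exceeded restricted muscle by 0.21 and 0.26. RefSeq lists a median of 3 transcripts for the 34 genes, against 2 over all protein-coding genes, with 34 for HNRNPA2B1 and 14 for HNRNPH3. A transcript cluster gives 1 level over such forms, so changes between them are not visible in these values.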
